A study of Mus musculus with 2 samples.

Results

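Long noncoding RNAs are transcripts that are not translated, and many of them act or stay in the nucleus. Described here are 8 such genes in mouse microglia, namely Malat1, Neat1, Pvt1, Mir142hg, Kcnq1ot1, AI480526, Lockd and C030034L19Rik, of 32285 genes in the matrix. They were taken by gene name from the feature table, and all 8 were found there once. They were chosen by their levels in oil and TAM hashtags, their levels per cell state and their covariation with mitochondrial share and depth. Those values are therefore given below as descriptions, without a test. Tests are given only for measures that did not serve the choice of the 8. The gene lists were also chosen with earlier results of these data known. The p-values of listed genes and of their mean levels are not independent of that knowledge.

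The cells came from the brains of 12-week-old mice with 1 copy of the Cx3cr1CreERT2(Litt) allele, in which a Cre recombinase fused to a tamoxifen-responsive receptor is expressed from the Cx3cr1 locus of microglia. The mice received oil or tamoxifen (TAM) over 4 weeks, and both treatments carried the allele. After perfusion, CD11b+ CD45+ cells without Ly6G or CD206 on their surface were sorted, tagged with hashtag antibodies and run as 1 droplet pool with 10x 3′ v3.1 chemistry. Each treatment had 5 hashtags, here Oil1 to Oil5 and TAM1 to TAM5. The labels do not tie a hashtag to a separate mouse, so the p-values reflect hashtag-to-hashtag spread only, and this may be technical. Mice without the allele were not analysed here.

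Malat1 and Neat1 are neighbouring genes whose RNAs stay in the nucleus. Malat1 RNA lies in nuclear speckles, where splicing factors gather, and Neat1 RNA is the scaffold of paraspeckles. Mir142hg is the host transcript of the miR-142 microRNAs, which are abundant in blood-derived cells and macrophages. Pvt1 lies beside the Myc oncogene. Kcnq1ot1 is an imprinted antisense RNA that silences genes of its domain in cis, and Lockd is transcribed downstream of the cell cycle inhibitor gene Cdkn1b. For AI480526 and C030034L19Rik no role is given here.

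Mature microRNAs are cut from their host transcript before polyadenylated RNA is counted, so a 3′ library counts the host and not the microRNA. RefSeq placed 3 mature microRNAs inside the span of Mir142hg, in its intron and not in its annotated exons. They are shown to make plain which sequences lie in the gene and are not what its counts measure. Capitals mark the seed, bases 2 to 8, which pairs with target RNAs. The pair of miR-142a arms lies on the plus strand like the host. miR-142b lies on the minus strand, so the Mir142hg transcript is not its precursor. The build is GRCm38.p6, at chr11:87756867-87756887, chr11:87756903-87756925 and chr11:87756906-87756925.
miR-142a-5p: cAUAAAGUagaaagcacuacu
miR-142a-3p: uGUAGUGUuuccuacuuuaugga
miR-142b: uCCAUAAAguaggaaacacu
The 3 seeds differ from each other, and targets were not analysed here.

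The 3′ chemistry captures RNA by its adenosine stretches, and a long stretch inside a transcript can be captured as well as a tail. The longest stretch is shown for Malat1 and Kcnq1ot1, the nuclear RNAs whose full-length GENCODE model is a single exon and holds at least 12 adenosines in a row, with 20 bases on each side and the stretch in capitals. In Malat1 the stretch has 12 bases, 298 bases before the transcript end (chr19:5795968-5796019, minus strand, GRCm38). In Kcnq1ot1 it has 41 bases, 23487 bases before the end (chr7:143226925-143227005, minus strand). A spliced Lockd model held a stretch of 19 bases, and the longest in any model of the other 5 genes had 9.
Malat1: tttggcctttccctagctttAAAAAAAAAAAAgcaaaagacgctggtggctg
Kcnq1ot1: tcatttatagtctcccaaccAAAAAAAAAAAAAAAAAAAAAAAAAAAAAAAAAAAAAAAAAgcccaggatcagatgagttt
The matrix holds no read positions, so which stretch a count came from was not analysed here.

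The RefSeq promoter table, with 250 bases before and 50 after the start, held 3 of the 8 genes, namely Malat1, Kcnq1ot1 and Lockd. That of Lockd is printed because its RNA was found mostly in dividing cells. Capitals mark a CHR element (TTTGAA), 189 bases before the start, and a CCAAT box read on the other strand, 208 bases before the start (chr6:134928842-134929141, plus strand, GRCm38.p6).
Lockd: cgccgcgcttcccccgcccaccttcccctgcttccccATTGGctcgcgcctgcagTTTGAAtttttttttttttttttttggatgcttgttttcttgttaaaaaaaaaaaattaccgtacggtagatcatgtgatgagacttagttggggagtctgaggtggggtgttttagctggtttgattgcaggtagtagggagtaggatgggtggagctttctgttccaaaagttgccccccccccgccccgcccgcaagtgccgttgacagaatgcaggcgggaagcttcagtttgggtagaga
CHR elements and CCAAT boxes are common in promoters of cell cycle genes, but they are also common elsewhere. A CHR element was found on either strand in 17.9% and a CCAAT box in 37.4% of all 32851 promoters of this length. The Kcnq1ot1 promoter held 3 CCAAT boxes and that of Malat1 neither motif. The AP-1 (TGANTCA), CRE (TGACGTCA) and Egr (GCGNGGGCG) motifs were not in any of the 3 windows, against 7.81%, 1.79% and 5.55% of all promoters.

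After hashtag assignment and filtering, 7903 single cells fell into 7 clusters, of which 5 with 7615 cells were called microglia-like from their markers. Each hashtag gave 591 to 907 of these cells with a median of 4880 to 5086 unique molecular identifiers (UMIs, 1 per captured RNA molecule) per cell. All 14 microglial markers were present. Of the markers of other cells, Ly6c2 and Chil3 (monocytes), Cd163 and Ms4a7 (other brain macrophages), S100a8 and S100a9 (neutrophils) and Cd3e (T cells) were at 0, while 5 of 7 monocyte, 5 of 7 macrophage and 3 of 5 T cell markers had UMIs. Summed monocyte markers were at 4.81 to 12.0 CPM (UMIs per 1000000 UMIs of the hashtag) with oil, and at 3.71 to 15.6 CPM with TAM. Summed macrophage markers were at 3.58 to 13.9 and 6.64 to 21.9 CPM, and T cell markers at no more than 0.439 and 0.235 CPM. The astrocyte list had members with counts, summing to 258 to 333 CPM in oil hashtags and 289.8 to 319 CPM in TAM hashtags, with Gja1 at 0. About 196 doublets of cells with the same hashtag are expected to remain.

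Counts were summed over the microglia-like cells of each hashtag and fitted with edgeR's quasi-likelihood test across all 11175 genes that passed the filter on low counts, and all 8 noncoding RNAs passed that filter. With TAM, 175 genes rose and 311 fell, so that 4.35% of the genes tested were called, and 866 were called with the hashtag number 1 to 5 as a replicate block. Of the 8, 6 were called, 4 higher (1.57% of all genes tested) and 2 lower (2.78%), and nothing is read from this share because the contrast served the choice. With scaling by library size alone 57.4% of the called genes were higher, against 36.0%. The count was 258 without Oil3 and 285, 261 and 257 without TAM3, TAM4 and TAM5. The oil and TAM values stood apart without overlap for 5.19% of all genes tested. They did so for 5 of the 8, of which 4 were higher with TAM (2.05% of all genes) and 1 lower (3.14%).

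Malat1 took 2.18% to 2.60% of all UMIs of microglia-like cells and 43.9% to 51.5% of those assigned to long noncoding RNA genes. It lies at chr19:5795690-5802672 on the minus strand (GRCm38). Its levels were 26314, 25257, 25159, 25282 and 25612 CPM in Oil1 to Oil5, and 23156, 24211, 21895, 21335 and 21981.5 CPM in TAM1 to TAM5. The lowest oil hashtag lay above the highest TAM hashtag, TAM2, and the 3 lowest values were those of TAM3, TAM4 and TAM5. The means were 25525 ± 473 CPM and 22516 ± 1156 CPM (SD, n = 5 each), with a log2 fold of −0.18 ± 0.030 (SE). In 25 other fits the log2 fold ran from −0.22 to −0.079 and was smallest with the hashtag number in the fit. With the immediate early level in the fit it was −0.096 ± 0.045. These fits reuse the same hashtags. Where the treatments do not overlap, leaving hashtags out can hardly turn the sign, so a shared sign is no separate support.

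Neat1 lies 22036 bases from Malat1, at chr19:5824708-5845478 on the same strand. It was at 57.6, 37.6, 39.3, 34.6 and 20.9 CPM in Oil1 to Oil5 and at 24.4, 29.7, 21.02, 23.7 and 25.5 CPM in TAM1 to TAM5. Oil1 was the highest of all, while Oil5 was below every TAM hashtag, so that the treatments overlapped. The means of 38.0 ± 13.1 CPM and 24.9 ± 3.17 CPM gave a log2 fold of −0.62 ± 0.19. Neat1 was outside the 6 counted above, but was called with the replicate block (log2 fold −0.61), with Xist class in the fit and with DESeq2. As for the other 7, nothing is read from these calls. Its sign was not stable, since the log2 fold was 0.25 ± 0.20 with the immediate early level in the fit and 0.26 ± 0.28 with the hashtag number. Without Oil1, Oil2 and Oil3 it was −0.16 ± 0.18.

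Mir142hg (chr11:87755577-87757270, plus strand) varied widely within each treatment. Its levels were 997, 878, 812, 722 and 544 CPM in Oil1 to Oil5 and 584, 458, 394, 348 and 399 CPM in TAM1 to TAM5. Oil5 lay below TAM1, so the treatments overlapped by that pair alone. The means were 791 ± 170 CPM and 437 ± 91.1 CPM (SD, n = 5 each), a log2 fold of −0.86 ± 0.14.

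Pvt1 spans 340111 bases at chr15:62037986-62378096 on the plus strand. It was at 128, 120, 108, 119.97 and 93.6 CPM in Oil1 to Oil5 and at 137, 141, 151, 134 and 163 CPM in TAM1 to TAM5. Every TAM hashtag lay above every oil hashtag, and the gap between Oil1 and TAM4 was small. The means were 114 ± 13.6 CPM and 145 ± 11.7 CPM, with a log2 fold of 0.35 ± 0.08. The log2 fold was 0.16 to 0.4993 in 25 other fits, which reuse the same hashtags and give no separate support.

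Kcnq1ot1 (chr7:143203458-143296549, minus strand) differed least between treatments. It was at 139.6, 137, 144, 141 and 140.4 CPM in Oil1 to Oil5 and at 148, 139, 119.5, 132 and 142 CPM in TAM1 to TAM5. The oil values lay inside the TAM range, and the log2 fold was −0.047 ± 0.055. Its means were 140.4 ± 2.51 CPM and 136 ± 10.9 CPM.

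The 3 rare RNAs were each counted from few molecules. AI480526 (chr5:123133723-123141666, minus strand) was read from 177 oil and 323 TAM UMIs, at 7.45, 8.16, 9.83, 9.89 and 10.7 CPM in Oil1 to Oil5 and at 15.7, 15.5, 14.6, 17.7 and 17.9 CPM in TAM1 to TAM5. The treatments stood apart over the hashtags, and the log2 fold was 0.81 ± 0.13. It was 0.39 to 1.002 in 25 other fits and moved by over 1 SD in 3 of them. Those fits reuse the same hashtags and give no separate support. C030034L19Rik (chr3:9403064-9437233, plus strand) was read from 61 and 168 UMIs, at 6.02, 5.33, 2.01, 2.08 and 1.49 CPM in Oil1 to Oil5 and at 8.21, 12.5, 7.21, 6.75 and 8.93 CPM in TAM1 to TAM5. Oil1 and Oil2 came close to the lowest TAM value, that of TAM4, and the log2 fold was 1.39 ± 0.31. It was larger, at 2.61 ± 0.44 and 2.45 ± 0.53, with the immediate early level and the hashtag number, respectively, in the fit.

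Lockd (chr6:134929092-134956798, plus strand) had the largest log2 fold of the 8, 3.16 ± 0.53, on 25 oil and 245 TAM UMIs. It was at 1.43, 2.82, 0, 0.781 and 1.99 CPM in Oil1 to Oil5 and at 3.75, 6.42, 18.3, 19.2 and 11.6 CPM in TAM1 to TAM5. TAM3, TAM4 and TAM5 were high, whereas TAM1 was close to Oil2. The same 3 hashtags held 17, 13 and 12 of the dividing cells of cluster 6, against 2 and 6 in TAM1 and TAM2 and 1 to 3 in each oil hashtag.

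**Figure D1:**
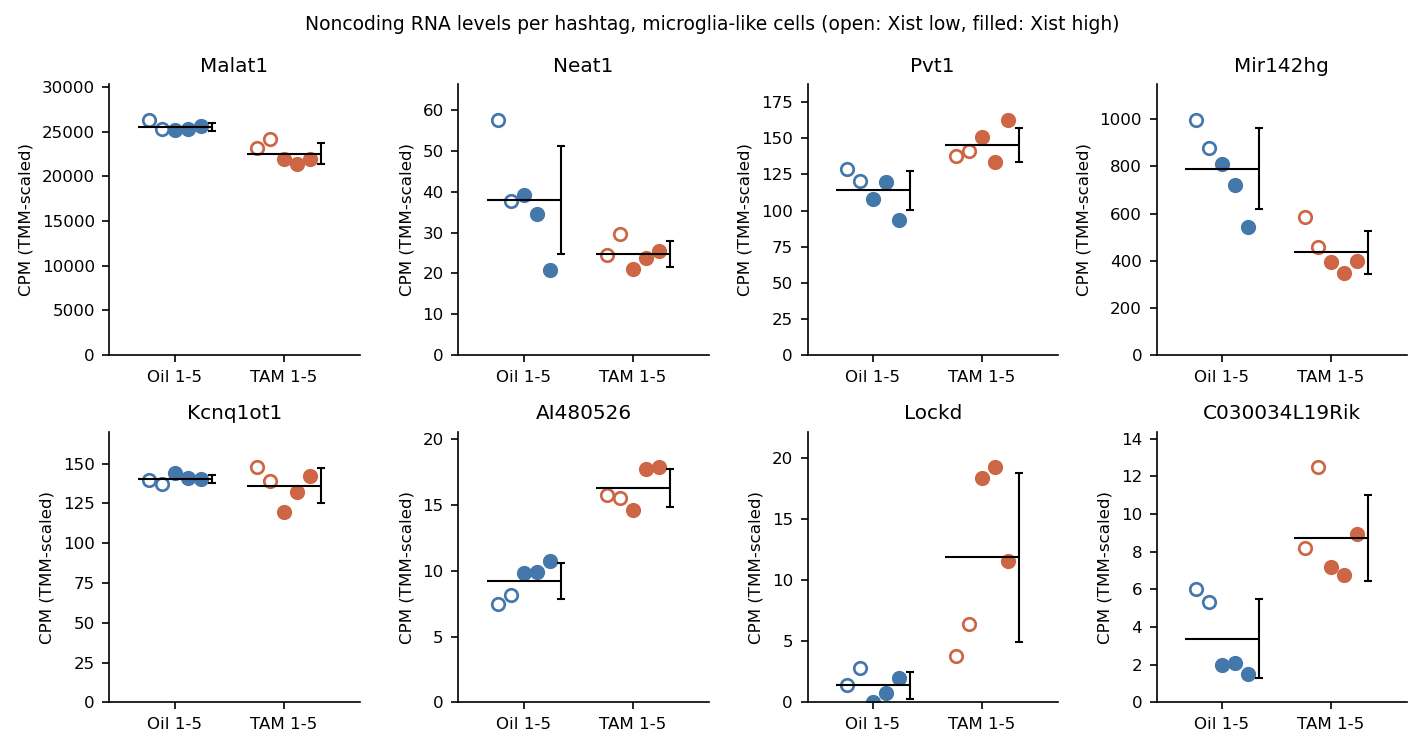
TMM-scaled CPM of each noncoding RNA (y axis, from 0) in the 5 oil (blue) and 5 TAM (orange) hashtags, summed over microglia-like cells. Circles are hashtags 1 to 5 from left to right, open where Xist is below 100 CPM and filled where it is above, and black lines are the mean and SD. Mir142hg ran from 997 CPM in Oil1 to 348 CPM in TAM4, and Kcnq1ot1 stayed between 119.5 and 148 CPM.

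Of the 270 Lockd UMIs in microglia-like cells, 93.3% came from the 60 dividing cells, cluster 6, led by Mki67 and Top2a. A Lockd UMI was found in 42 of those 60 cells and in 14 of the other 7555. The median depth was 7725 UMIs in cluster 6 and 4269 to 5557 in the other microglia-like clusters. Cluster 6 held 10 oil cells with 19 Lockd UMIs and 50 TAM cells with 233. Outside it 6 UMIs were counted in 3767 oil cells and 12 in 3788 TAM cells, at 0 to 0.62 CPM in oil and 0 to 1.42 CPM in TAM hashtags. Lockd was itself among the genes that led cluster 6, so its place there is a description. Within cluster 6 the oil cells had 232 CPM and the TAM cells 594 CPM of Lockd. How far the level per dividing cell differed was not tested.

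Of 21 genes on the list of cell division genes, 13 passed the filter on low counts. Of these 13, 11 rose with TAM, none fell and 2 did not pass. Their median log2 fold was 2.10 against 0.00 over all genes tested (−0.000845). Cit, a kinase of cytokinesis, was at 1.42 ± 0.668 CPM in oil hashtags and rose to 6.79 ± 2.53 CPM with TAM, a log2 fold of 2.29 ± 0.35 (edgeR adjusted p = 0.00401). Kif23, a kinesin of the dividing cell's midbody, rose by 2.94 ± 0.48, the kinetochore gene Spc25 by 1.77 ± 0.30 and the mitotic kinase Cdk1 by 1.75 ± 0.30 on the log2 scale. Cit, Kif23 and Spc25 reached at most 2.29, 2.01 and 2.34 CPM in oil hashtags, and each was at 3.52 CPM or more in TAM hashtags. Such genes could pass the filter through their TAM values alone. The count, the median and the p-values of this list therefore favour a rise and are descriptions. None of the list passed in hashtags of low Xist alone, with the hashtag number or the immediate early level in the fit, or without Oil1, Oil2 and Oil3. Cdkn1b, which encodes the inhibitor p27 and lies 3567 bases from Lockd, was at 71.3 ± 2.70 CPM with oil and at 68.1 ± 4.51 CPM with TAM and did not pass (log2 fold −0.066 ± 0.060, adjusted p = 0.61, edgeR).

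Of 10 measured p53 target genes, 2 rose, 1 fell and 7 did not pass. Cdkn1a, which encodes the cell cycle brake p21, rose from 22.0 ± 3.46 CPM by a log2 fold of 1.76 ± 0.29, and the cyclin gene Ccng1 by 0.46 ± 0.09 from 23.8 ± 2.03 CPM. Btg2, an antiproliferative gene that is also an immediate early gene, fell by 1.65 ± 0.27 (adjusted p = 0.0044, 0.00742 and 0.00441, edgeR). None of them passed with the hashtag number or the immediate early level in the fit.

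Immediate early genes, which respond to a stimulus without new protein synthesis, moved with the levels of Mir142hg. Of 21 measured, 17 fell with TAM and none rose, with a median log2 fold of −1.51. With the hashtag number in the fit 2 of the 21 passed, and 0 did without Oil1, Oil2 and Oil3 or with the level of the list itself in the edgeR fit. Egr1 and Ier2 fell by 3.17 ± 0.48 and 2.70 ± 0.38, and Zfp36, whose product degrades cytokine mRNA, by 1.49 ± 0.24 (adjusted p = 0.00401, 0.00287 and 0.0044, edgeR). The mean log2 CPM of the list was 6.95, 6.25, 6.06, 5.51 and 5.004 in Oil1 to Oil5 and 4.87, 4.90, 4.24, 3.90 and 3.84 in TAM1 to TAM5. Its means were 5.96 ± 0.740 and 4.35 ± 0.514, and the treatments did not overlap. An exact two-sided permutation test that left the pairing of hashtags out gave p = 0.00794, the smallest it can give. Adjusted over 6 quality measures, the p-value of this test was 0.0476. The adjusted p was 0.0714 to 0.0952 when TAM1, TAM2, TAM3, TAM4 or TAM5 was left out, and 0.0476 when any 1 oil hashtag was.

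Oil1, the hashtag with the most immediate early RNA, also had the most Mir142hg, and the 3 hashtags with the least, TAM3, TAM4 and TAM5, had the least. With the immediate early level in the fit the log2 fold of Mir142hg was −0.13 ± 0.10, and with the hashtag number, counted from 1 to 10 over both treatments, it was 0.029 ± 0.13. Without Oil1, Oil2 and Oil3 it was −0.53 ± 0.15, and in cells of the largest cluster alone, which immediate early genes did not lead, −0.58 ± 0.11. The immediate early level, the number of the hashtag and the treatment run together over these hashtags, and what part each has in the Mir142hg level cannot be told apart.

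The same cells can be read with the immediate early share held to a narrower range. All microglia-like cells were put into 5 bins by their share of immediate early UMIs, with the same limits for both treatments. In the lowest bin Mir142hg was at 395 ± 79.8 CPM in 4 oil hashtags and 388 ± 42.7 CPM in 5 TAM hashtags. In the second bin it was at 508 ± 31.6 CPM and 409 ± 58.3 CPM, in the third at 615 ± 50.1 CPM and 472 ± 60.8 CPM, and in the fourth at 752 ± 106 CPM and 533 ± 85.2 CPM. The TAM level was thus 0.982, 0.805, 0.767 and 0.709 of the oil level from the lowest to the fourth bin. The lowest bin held 300 oil and 1223 TAM cells and the fourth 1011 and 513. Whether the immediate early share still differed between treatments inside a bin was not tested. In the highest bin 1 TAM hashtag alone had at least 20 cells. AI480526 with TAM was at 1.01, 2.41, 1.37 and 1.13 of its oil level from the lowest to the fourth of these bins.

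**Figure D2:**
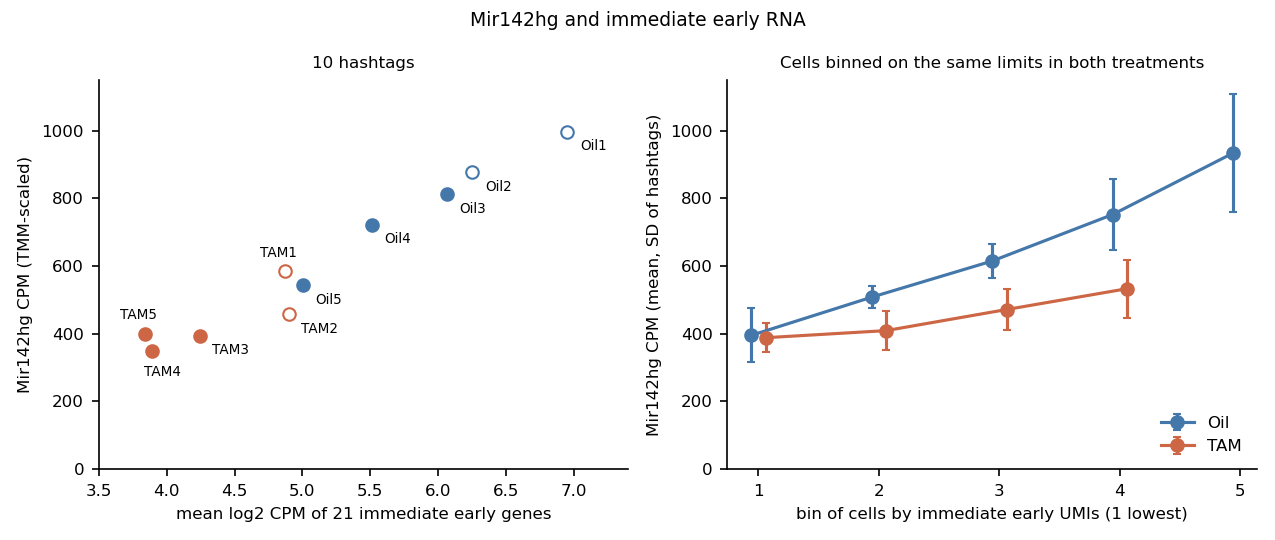
Left, Mir142hg CPM (y axis) against the mean log2 CPM of 21 immediate early genes (x axis) in 10 hashtags, oil in blue and TAM in orange, open where Xist is low. Right, Mir142hg CPM (mean and SD of hashtags with at least 20 cells) in bins of cells by immediate early share, with TAM shown where at least 2 hashtags had enough cells. Oil and TAM means were 395 and 388 CPM in the lowest bin and 752 and 533 CPM in the fourth.

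With each hashtag's own bins, Mir142hg was at 449 CPM in the cells of lowest and 758 CPM in those of highest immediate early share, and it was higher in the top bin in 10 of 10 hashtags. Neat1 was at 23.2 and 39.9 CPM, higher in 8 of 10. Malat1 was at 23329 and 25252 CPM, higher in 10 of 10, whereas Pvt1, at 141 and 121 CPM, was lower in 8 of 10. Across cells within hashtags, the 3 genes whose levels followed Mir142hg most were the immediate early genes Jun, Btg2 and Junb (Pearson r = 0.14, 0.13 and 0.13 over 7615 cells and 4263 candidate genes). These cells share 1 library and the values share a total, so r is a description.

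Hashtags also fell into 2 classes by Xist, the RNA that coats and silences 1 X chromosome in female cells, with 6 above and 4 below 100 CPM. Oil1, Oil2, TAM1 and TAM2 were the low ones, and the classes were read from the data and not from the labels. With treatment in the fit, 262 genes (2.34% of those tested) differed by Xist class. The class values of the 8 rest on the same hashtag levels by which they were chosen, so they are given without a test. Mir142hg had a log2 fold of −0.45 ± 0.08 between hashtags of high and low Xist. The means of low and high hashtags were 938 and 693 CPM in oil and 521 and 381 CPM in TAM, and within each treatment all 3 hashtags of high Xist lay below both of low Xist. The immediate early level did the same in each treatment, and with it in the fit the class coefficient was −0.052 ± 0.11. With the hashtag number it was −0.031 ± 0.13.

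For C030034L19Rik the log2 fold of high over low Xist hashtags was −0.79 ± 0.24, for Neat1 −0.42 ± 0.15 and for Lockd 1.204 ± 0.41. In hashtags of high Xist alone the log2 fold of Lockd with TAM was 4.16, and in those of low Xist 1.21. For Pvt1 these were 0.48 and 0.16, for Malat1 −0.22 and −0.12, and for Mir142hg −0.86 and −0.84. Whether the response differed between the classes was not tested.

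**Figure D3:**
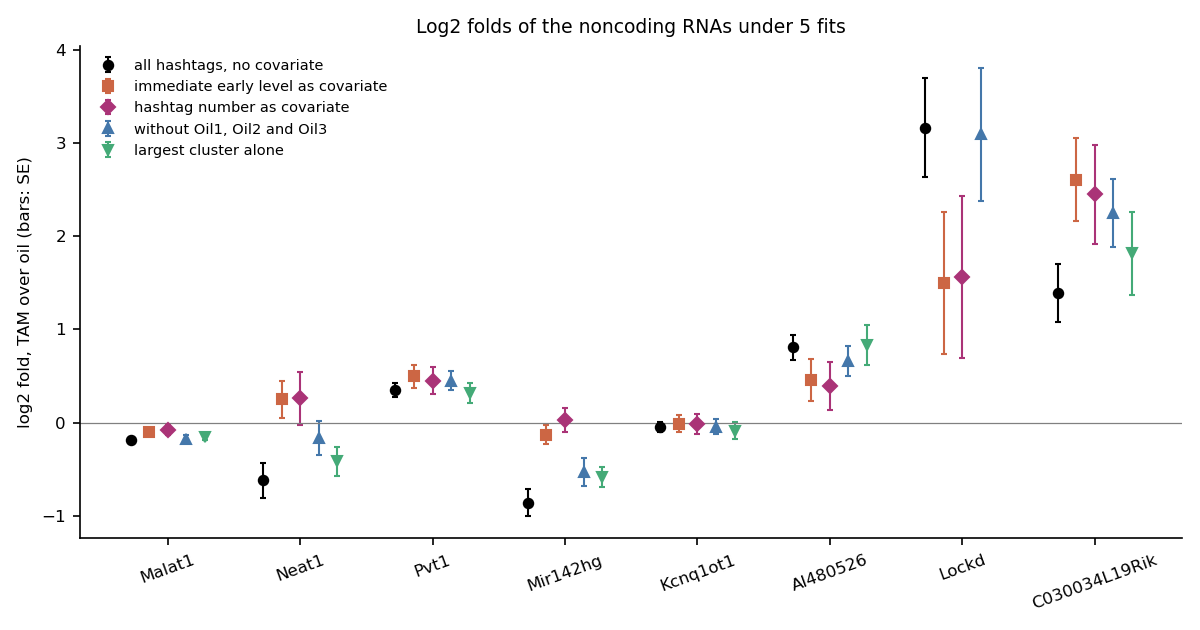
Log2 fold of TAM over oil (y axis, bars are SE) of each noncoding RNA in 5 fits, marked by shape and colour. Malat1, Pvt1, AI480526, Lockd and C030034L19Rik kept their sign in the fits shown, which share hashtags and are no separate support. Mir142hg was at 0.029 and Neat1 at 0.26 with the hashtag number in the fit, and Lockd has no value in the largest cluster.

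The microglia-like cells were split into cluster 0 (1872 cells, led by Fos and Egr1), cluster 1 (2607 cells, led by Lsm7 and Higd2a), cluster 2 (261 cells, led by Lgals3, Lpl and Ifit3), cluster 3 (2815 cells, led by Nhs) and the dividing cluster 6. Cluster 0 held mostly oil cells. Malat1, Pvt1, Kcnq1ot1 and Lockd were among the variable genes used to make the clusters, so levels per cluster are descriptions.

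Malat1 was even over the larger clusters, at 25023, 24970, 21504 and 22932 CPM in clusters 0, 1, 2 and 3. In the dividing cells it was at 10509 CPM, against 24006 CPM in the other microglia-like cells. Pooled over hashtags, the values were 10240 and 25160 CPM in oil, with 10 dividing cells, and 10565 and 22857 CPM in TAM, with 50. The dividing cells were also the deepest, with a median of 7725 UMIs. Malat1 was lower in deeper cells, at 28670 CPM in the lowest and 20851 CPM in the highest bin of UMI totals. What part depth has in the low level of the dividing cells was not tested. Without the dividing cells Malat1 was still lower in every TAM hashtag, at 22196 to 24343 CPM, than in every oil hashtag, at 24756.5 to 26003 CPM.

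Pvt1 was highest in cluster 6, at 274 CPM, and in cluster 2, at 266 CPM, against 96.7 to 148 CPM in clusters 0, 1 and 3. In cluster 2 its level ranged from 134 to 451 CPM over 9 hashtags. Neat1 was at 66.2 CPM in cluster 2, 43.4 CPM in cluster 0 and 21.5 to 26.4 CPM in clusters 1 and 3. Mir142hg was at 928 CPM in cluster 0 and at 459 to 533 CPM in clusters 1, 2 and 3, and in cluster 0 too its mean over hashtags was higher in oil, at 916 ± 147 CPM (n = 5), than in the 2 TAM hashtags with enough cells, at 627 ± 66.7 CPM. Kcnq1ot1 was at 107 CPM in cluster 1 and 161 CPM in cluster 3, and AI480526 at 9.89 CPM in cluster 0 and 15.3 CPM in cluster 3.

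Within a cluster the treatments could be set side by side, which holds the mix of clusters fixed. In cluster 1 Malat1 was at 26480 ± 684 CPM over the oil and 24077 ± 906 CPM over the TAM hashtags, and Mir142hg at 659 ± 86.7 and 468 ± 73.2 CPM. In cluster 3 Malat1 was at 24643 ± 734 and 22334 ± 720.4 CPM, and Mir142hg at 613 ± 92.7 and 407 ± 91.5 CPM (SD, n = 5 each). Both RNAs were thus lower with TAM within clusters 0, 1 and 3, by their means. AI480526 was at 9.65 ± 2.05 and 17.4 ± 2.61 CPM in cluster 3, and C030034L19Rik at 3.65 ± 3.57 and 8.13 ± 1.08 CPM.

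Pvt1 was also high in cluster 5, at 297 CPM on 115 UMIs. That cluster stayed unnamed, with a median of 1472 UMIs per cell and mitochondrial genes among its leading genes. Neat1 was at 120 CPM and C030034L19Rik at 40.1 CPM in cluster 4, which was led by MHC class II genes and also stayed unnamed, but these rest on 24 and 8 UMIs in 51 cells.

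**Figure D4:**
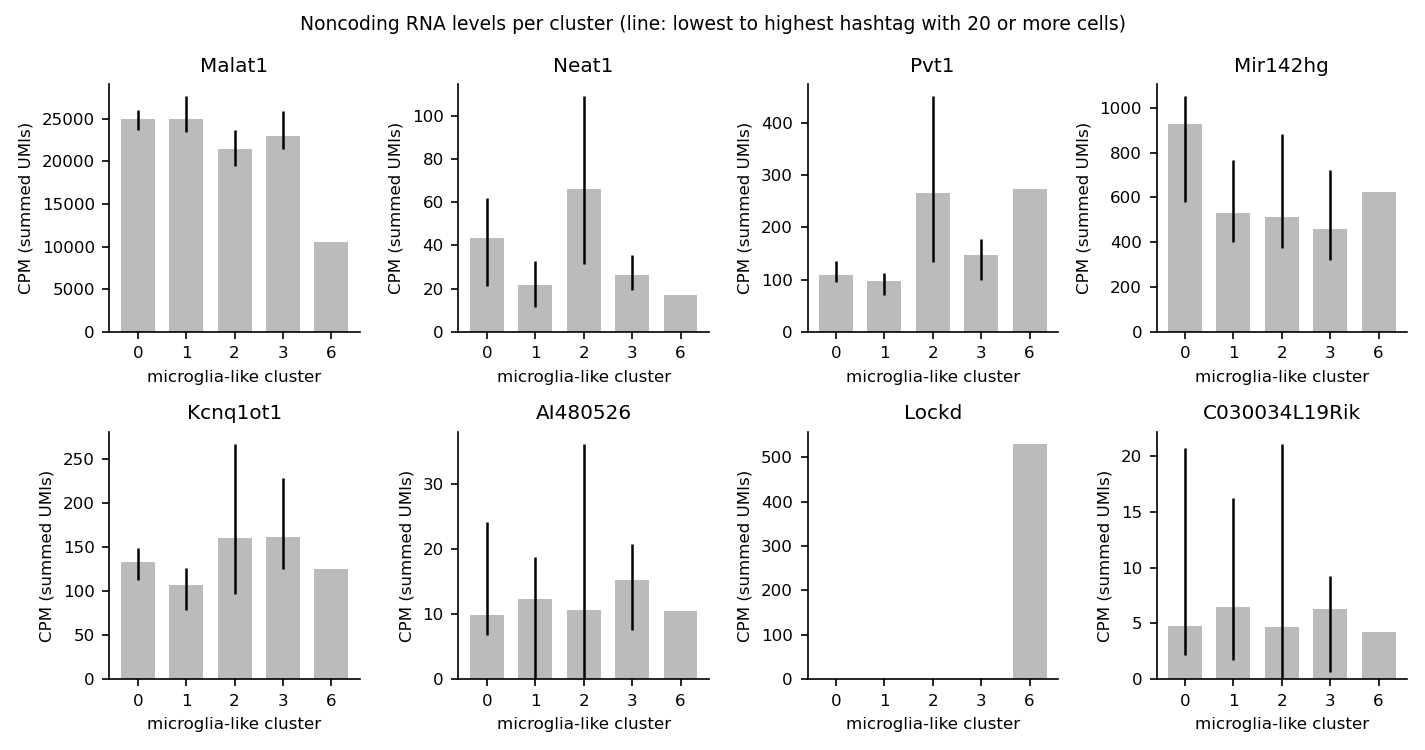
CPM of summed UMIs (grey bars, y axis from 0) of each noncoding RNA in the 5 microglia-like clusters (x axis), with vertical lines from the lowest to the highest hashtag that had at least 20 cells of the cluster. Lockd was at 531 CPM in the dividing cluster 6 and below 1 CPM elsewhere, and Malat1 was lowest there, at 10509 CPM.

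Within every hashtag, cells were also put into 5 bins by their UMI total and by the share of mitochondrial UMIs. Malat1 was at 28670 CPM in the cells of lowest and 20851 CPM in those of highest total, and lower in the top bin in 10 of 10 hashtags. Mir142hg did likewise, at 722 and 535 CPM (10 of 10), while Pvt1 went the other way, at 88.1 and 157 CPM (higher in 10 of 10), and Kcnq1ot1 too, at 119 and 152 CPM (8 of 10). Neat1, at 31.1 and 33.1 CPM, differed by less than its spread over hashtags. A level here is a share of the cell's own total and not an amount per cell.

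By mitochondrial share, Malat1 was at 25279 CPM in the lowest bin and 22765 CPM in the highest (lower in 10 of 10 hashtags), and Mir142hg at 567 and 628 CPM (higher in 10 of 10). Cell by cell, however, the mean Pearson r of Mir142hg with the mitochondrial share was 0.0034, positive in 4 of 10 hashtags. Pvt1 was at 130.4 and 136 CPM, higher in 6 hashtags of 10 and lower in 4. Across cells the mean Pearson r of Malat1 was −0.19 with the mitochondrial share and −0.26 with the log of the UMI total, negative in 10 of 10 hashtags, and that of Pvt1 with the total was 0.16. Median UMIs per cell were 4988 ± 74.9 in oil and 4960 ± 76.6 in TAM hashtags (exact permutation test, adjusted p = 0.676), and mitochondrial shares 0.859% ± 0.0416 and 0.916% ± 0.0549 (exact permutation test, adjusted p = 0.175). In cells of like total, Malat1 in TAM was 0.882 to 0.924 of its oil level over the 5 bins, and in cells of like mitochondrial share 0.896 to 0.914. Over the common bins of immediate early share this ratio was 0.916, 0.923, 0.954 and 0.964 from the lowest to the fourth. In the highest, with 1 TAM hashtag, it was 1.02.

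**Figure D5:**
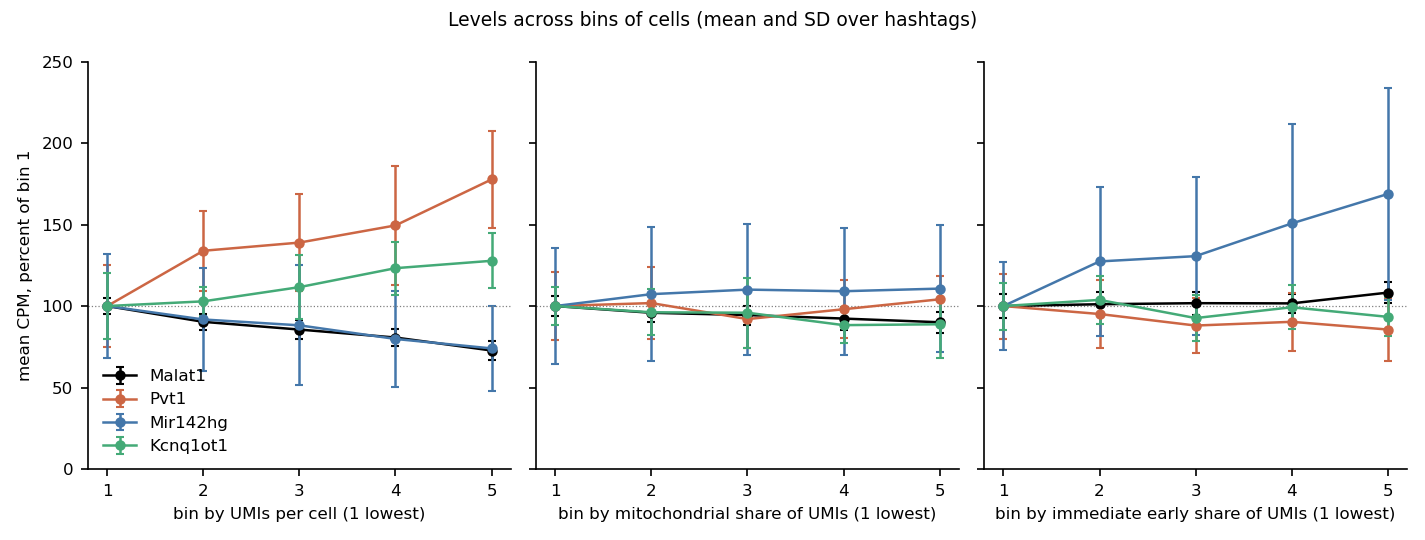
Mean CPM as a percent of the lowest bin (y axis, from 0, bars are SD over 10 hashtags) of Malat1, Pvt1, Mir142hg and Kcnq1ot1 in 5 bins of cells by total UMIs, mitochondrial share and immediate early share (x axes, 1 is lowest). By total UMIs Pvt1 reached 178% and Malat1 72.7% of the lowest bin, and by immediate early share Mir142hg reached 169%.

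A second way to read the data is the share of cells with at least 1 UMI. Malat1 was found in 99.9% of microglia-like cells, Mir142hg in 86.8%, Pvt1 in 38.9%, Kcnq1ot1 in 33.9%, Neat1 in 12.8%, AI480526 in 6.13%, C030034L19Rik in 2.73% and Lockd in 0.735%. When cells were thinned to 2000 UMIs, which left out 66 oil and 91 TAM cells, Mir142hg was found in 71.4% ± 7.29 of oil and 54.6% ± 5.11 of TAM cells (unthinned 90.5% and 83.1%). Pvt1 was found in 18.3% ± 1.69 and 21.6% ± 2.74 (unthinned 36.0% and 42.0%), and Kcnq1ot1 in 19.6% ± 0.913 and 19.7% ± 1.01 (unthinned 33.7% and 34.1%). Neat1 was found in 6.62% ± 1.38 and 4.23% ± 0.355 (unthinned 15.4% and 10.6%), AI480526 in 1.85% ± 0.315 and 2.92% ± 0.721 (unthinned 4.46% and 7.74%), and C030034L19Rik in 0.659% ± 0.459 and 1.84% ± 0.689 (unthinned 1.57% and 4.06%). No cluster of a cell type known to lack these RNAs was found, so the share that free RNA gives was not measured for them. Lockd, with a UMI in 14 of 7555 cells outside cluster 6, is the exception.

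The RNAs of partner proteins and of neighbouring genes were tested as genes that are not among the 8. Of 15 measured genes of paraspeckle proteins, Tardbp, which encodes an RNA-binding protein, rose by 0.43 ± 0.10 (adjusted p = 0.0234, edgeR). Hnrnpk, whose product is needed for paraspeckle assembly, fell by 0.20 ± 0.04 (adjusted p = 0.0172, edgeR), and 13 did not pass. Of 22 genes of nuclear speckle and splicing proteins, the splicing factor gene Srsf1 rose by 0.38 ± 0.09. Clk1, whose product is a kinase that phosphorylates such factors, fell by 0.35 ± 0.07, and 20 did not pass. The medians of these lists were 0.01 (0.00601 and 0.0129) against −0.000845 over all genes. None of these 4 calls held with the hashtag number or the immediate early level in the fit, and with the replicate block 3 paraspeckle and 7 speckle genes passed. Without Oil3 no paraspeckle gene and 1 speckle gene passed.

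Of 13 measured genes of the microRNA pathway, Drosha, Dicer1 and the Argonautes among them, 0 passed in the edgeR test. The same held for 6 measured genes of the Kcnq1 imprinted domain and for 26 measured long noncoding RNAs from a list of 36, such as Gas5 and the Snhg genes. Over all genes tested 4.35% were called, so few or no calls are expected in lists this short. Counts of 0 therefore do not show that the genes were unchanged. For the last list 2 passed with DESeq2, 4 with the replicate block and up to 3 when 1 hashtag was left out. Over all 11175 genes, 2172 had an unadjusted p below 0.05. Of the 931 other genes that GENCODE types as long noncoding, a set drawn after the files were seen, 17 rose and 43 fell (6.44% called, against 4.10% of the 10236 remaining genes), with a median log2 fold of 0.05.

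Of the measured genes next to the 8 and not among them, none passed, against 4.35% of all genes tested. Myc, 47625 bases from Pvt1, was at 16.7 ± 3.499 CPM with oil and at 18.2 ± 2.14 CPM with TAM (log2 fold 0.13 ± 0.14, adjusted p = 0.683, edgeR). Supt4a, next to Mir142hg, was at −0.15 ± 0.06 (adjusted p = 0.182, edgeR). Setd1b, a histone methyltransferase gene 374 bases from AI480526, was at −0.069 ± 0.079, and Cdkn1c, an inhibitor of cell division in the Kcnq1ot1 domain, at −0.27 ± 0.12 (adjusted p = 0.702 and 0.241, edgeR). C030034L19Rik overlaps Zfp704 on the opposite strand, and the strand used in counting is not given in the sources used here. Where the genes overlap, its reads and those of Zfp704 (log2 fold 0.12 ± 0.11, adjusted p = 0.608, edgeR) may not be separable. Kcnq1ot1 is in the same way antisense to Kcnq1, and AI480526 overlaps Gm26745 and 4932422M17Rik.

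Across cells within hashtags, the genes most like Malat1 were Tanc2, Cx3cr1 and Tgfbr1 (r = 0.15, 0.15 and 0.14), and the most opposite were Tmsb4x, Actb and Gapdh (−0.28, −0.20 and −0.18), which are abundant cytoplasmic mRNAs. Those most like Pvt1 were Lrmda, Cadm1 and Gnaq (0.13, 0.09 and 0.09) and those most opposite Cst3, Fcrls and Sparc. Lrmda was also the most like Kcnq1ot1 (0.08), followed by Macf1 and Ldlrad4, with C1qb, C1qa and Cst3 most opposite. For the rarer RNAs likeness was taken over the 10 hashtags after removing treatment means, and the first genes were Dennd4a for Neat1 (0.96), Aimp1 for AI480526 (0.91), Dctn2 for Lockd (0.92) and Rnf20 for C030034L19Rik (0.96). With 10 hashtags and 7096 or 7097 candidates these values are descriptions.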

How the data were processed

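The authors deposited raw UMI counts of genes and hashtags in each barcode. The file headers name Cell Ranger 7.0.0 and the submitters' processing notes name mm10. Annotation, intron and strand settings: not given in the sources used here. The matrix held 51821041 gene UMIs in 9975 barcodes (median 4974). Hashtags were assigned with HTODemux (Seurat 5.3.0, quantile 0.99), giving 8055 singlets, 1737 doublets (17.4%) and 183 negatives, of which the last 2 kinds were left out. Cells needed 1000 UMIs, 500 genes and at most 10% mitochondrial UMIs, and were clustered with scanpy 1.11.5 (2000 variable genes, 30 components, 15 neighbours, Leiden resolution 0.5). A cluster was named where at least 3 markers were in 25% of cells and their median was at least 50%. A cluster of much lower depth also needed a marker of that cell type among its leading genes. Cluster 5 lacked this and stayed unnamed, although 12 of 14 microglial markers were in 25% of its cells, with a median of 58.4%.

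For each hashtag, the counts over its microglia-like cells were added up and tested with edgeR 4.0.16 (TMM, filterByExpr, quasi-likelihood, Benjamini-Hochberg at 0.05) on all genes; the SE is the absolute log2 fold over the square root of F. CPM per hashtag are TMM-scaled and CPM per cluster, bin or cell class are of summed UMIs. Quality measures were compared with exact permutation over all regroupings of the hashtags. The fit was checked on simulated counts. Hashtags with the same number deviated together (r = 0.54, 0.40, 0.28, 0.21 and 0.26 for numbers 1 to 5, each over 0.1), which counts as pairing here, although the highest r was with the hashtag of the same number for 3 of 5 numbers and not for 4 and 5 (0.39 and 0.40 with another number). The labels tie no number to a batch or litter. The edgeR fits without the replicate block and the permutation tests leave the pairing by number out, so their p-values do not account for it. Named were the 8 RNAs, up to 4 genes per list with the smallest p among those called, nearest measured neighbours with Myc, Cdkn1b and Cdkn1c, and the 3 genes most like each RNA. The RNAs and lists were chosen with earlier results of these data known. Other scalings, tests, filters, covariates and left-out hashtags were tried. Positions are from GENCODE M21, promoters and microRNAs from RefSeq (GRCm38.p6).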

Additional observations from a re-analysis of the deposited data

Results flagged for a closer look

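None of the 8 noncoding RNAs had a hashtag far from the other 4 of its treatment, in 28 groups looked at together with 6 quality measures. For 2 quality measures 1 hashtag lay apart from the others, and chance alone flags about 1 group in 20. TAM5 had 1.01% mitochondrial UMIs, against 0.881% to 0.899% in the other TAM hashtags. Oil4 had 0.215% of its UMIs in genes that overlap ribosomal RNA, against 0.194% to 0.199% in the other oil hashtags. The Malat1 level of TAM5 lay between those of TAM3 and TAM1.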

How the results depend on the processing

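The count of 486 genes called with TAM was 838 without a filter on low counts, 866 with the replicate block, 875 with Xist class, 69 with the immediate early level, 40 with the hashtag number or 76 with the mitochondrial share in the fit, 42 in the largest cluster alone, 120 in hashtags of low Xist alone, 7 without Oil1, Oil2 and Oil3, and 257 to 653 when 1 hashtag was left out. The block of numbers added Neat1 to the called RNAs and changed no other call among the 8. Genes called by Xist class were 262, 12 with the immediate early level in the fit, 10 with the hashtag number in it, and 128 to 345 when 1 hashtag was left out. List genes called were 34, 56 without the filter, 0 with the immediate early level, 2 with the number and 16 with the mitochondrial share in the fit, 9 in the largest cluster, 16 in low Xist hashtags, 0 without Oil1, Oil2 and Oil3, and 26 to 44 when 1 hashtag was left out. The difference in immediate early level was −1.84 to −1.36 and that in ribosomal protein share 0.130 to 0.214 percentage points when 1 hashtag was left out. Mir142hg changed sign with the hashtag number in the fit (0.029). Settings chosen after seeing the data were the Xist classes alone, the covariates in the Xist fit, the bins on common limits, the levels without the dividing cluster and the fit without Oil1, Oil2 and Oil3. Where calls were lost in fits with fewer samples or an added covariate, the cause was not tested. AI480526, Lockd and C030034L19Rik rest on 500, 270 and 229 UMIs, so their levels per hashtag and cluster are limited by depth.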

Other observations

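Barcodes left out of the comparisons also held Malat1. It was at 23095 CPM in the 1716 barcodes with several hashtags and at 25301 CPM in the 141 without a hashtag, against 23842 CPM in microglia-like cells. In the 26 barcodes with over 10% mitochondrial UMIs it was at 12104 CPM.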
